A study of Mus musculus with 6 samples.

Results

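The genes described here are 44 mouse genes that encode the enzymes and transporters of glycolysis, of the fate of pyruvate and of glycogen metabolism, measured in hearts of Arid3b-null and wild-type embryos. Arid3b is a DNA-binding protein of the ARID family. The 44 genes were chosen as a list of named genes by function, with earlier results of these data known. Each was found on the array through the RefSeq accession of its probes. Of the 44, 43 were measured, among 21787 genes tested in all. The remaining gene, Hk3, a hexokinase known mainly from blood cells, was well above background on 1 Arid3b-null and 1 wild-type array, too few for the test. All 43 measured genes were well above background on all 6 arrays.

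Hearts were taken at embryonic day 9.5, and the dissected piece held the heart tube together with pharyngeal mesoderm and endoderm. There were 3 Arid3b-null and 3 wild-type samples, each a pool of 4 embryos, and each was hybridised in a single colour (Cy3) to its own Agilent array. All 6 samples share the stage and the dissection; the kind of null allele, the strain and the litters are not given in the sources used here. Values are log2 signal after subtraction of the array's own 75th percentile, called the log2 level below, and a log2 change is the mean of the Arid3b-null pools minus the mean of the wild-type pools. A gene was said to rise or fall where its Benjamini-Hochberg adjusted p from limma, over all genes tested, was under 0.05.

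Glycolysis splits glucose into pyruvate and yields ATP without oxygen. Pyruvate then either becomes lactate, which leaves the cell, or enters mitochondria through pyruvate dehydrogenase, a complex that the Pdk kinases switch off. Most steps are served by several isoforms from separate genes, and the early embryonic heart is known to rely on glycolysis and to hold glycogen before its mitochondria mature.

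On the 6 arrays, the scanner software called 27136 to 29149 of 43020 spots well above background in the Arid3b-null pools and 29139 to 31039 in the wild-type pools, control spots left aside. Arid3b itself had log2 levels of 1.08, 0.52 and 0.45 in Arid3b-null pools 1, 2 and 3, against 2.91, 3.40 and 3.69 in the wild-type pools, a log2 change of -2.65 (SE 0.26, adjusted p = 0.00194), as the labels require. Each of 3 slides carried the Arid3b-null and the wild-type pool of the same number, at the same place for each genotype on every slide, so that place and genotype cannot be told apart. Of the 2278 genes called, 63.5% were higher in the Arid3b-null pools, and 44.1% of those called were higher when arrays were scaled to their median. Cardiomyocyte markers had similar summed log2 levels, 10.68 to 11 in Arid3b-null and 10.58 to 10.82 in wild-type pools. Of these 12 markers 1 rose, Nppa (log2 change 1.27, adjusted p = 0.00763). The summed megakaryocyte and platelet markers stood at 5.88 to 6.48 in Arid3b-null and 3.21 to 3.61 in wild-type pools, and all 14 of them rose, Pf4 by 3.65 and Ppbp by 4.28. Pharyngeal endoderm and epithelium markers summed to 6.35 to 6.56 in Arid3b-null and 5.44 to 5.55 in wild-type pools, a sum carried by the keratins Krt18 and Krt8 (log2 changes 1.09 and 0.89). Of the 12 markers 1 rose and 1 fell, 5 had a positive change, and their median was -0.05. Visceral endoderm and liver markers summed to 2.45 to 2.77 in Arid3b-null and 1.29 to 1.66 in wild-type pools, and 3 of 10 rose. Among them was Afp (log2 change 3.56, adjusted p = 0.0194), whereas Apoa2 did not pass (0.24, adjusted p = 0.557). Alb was not well above background on any array. Primitive erythroid markers summed to 9.58 to 10.23 in Arid3b-null and 8.14 to 9.21 in wild-type pools, and 0 of 11 passed with limma. However, 9 had an unadjusted p under 0.05, 4 passed with normexp and 9 with array weights. Over the 21787 genes tested, 5864 had such an unadjusted p, 2255 passed with normexp and 4861 with array weights. The part of these cell types in the results on glycolysis was not tested, and in such bulk samples fewer cells of a type and less RNA per cell cannot be told apart.

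Of the 43 genes, 19 rose in the Arid3b-null hearts (44.2%) and 0 fell, against 6.64% of all genes tested that rose and 3.81% that fell, or 10.5% in either direction. At an unadjusted p under 0.05, 27 were higher and 2 lower, and 5864 of the 21787 genes tested passed that threshold in either direction. All 3 listed glucose transporters rose, as did the aldolases Aldoa and Aldoc, triose phosphate isomerase and the phosphofructokinase Pfkp. The enolase Eno2, the pyruvate dehydrogenase kinase Pdk1 and 4 genes of glycogen metabolism rose too. The log2 changes of the 19 lay between 0.71 and 4.14, and 15 of them rose by 1 or more on the log2 scale, a change reached upward by 4.92% of all genes tested (7.47% in either direction). The median log2 change of the 43 was 0.64, against 0.03 over all genes tested. Within slides 1, 2 and 3 the median of the 43 was 0.65, 0.62 and 0.78, and that of all genes -0.11, 0.09 and 0.13.

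In 25 of the 43 genes every Arid3b-null pool lay above every wild-type pool, and in 3 (Ugp2, Pygb and Pygm) every Arid3b-null pool lay below, against 18% and 14.9% of all genes tested (32.9% in either direction). The 24 genes that did not pass had log2 changes between -1.10 and 0.92. With the slide, and so the replicate number, as a block, 10 of the 43 genes passed (23.3%), all of them among the 19, and 3.41% of all genes tested did. The 9 whose call ended were Slc2a1, Hk2, Gpi1, Pfkfb1, Aldoa, Tpi1, Pgk1, Slc16a3 and Gbe1, with adjusted p from 0.0502 for Hk2 to 0.205 for Aldoa. The call held under all 17 alternatives for 9 others, namely Slc2a3, Slc2a4, Pfkfb3, Aldoc, Eno2, Pdk1, Pgm1, Gys1 and Pygl, and Pfkp lost it without Arid3b-null pool 2 (adjusted p = 0.0523).

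**Figure D1:**
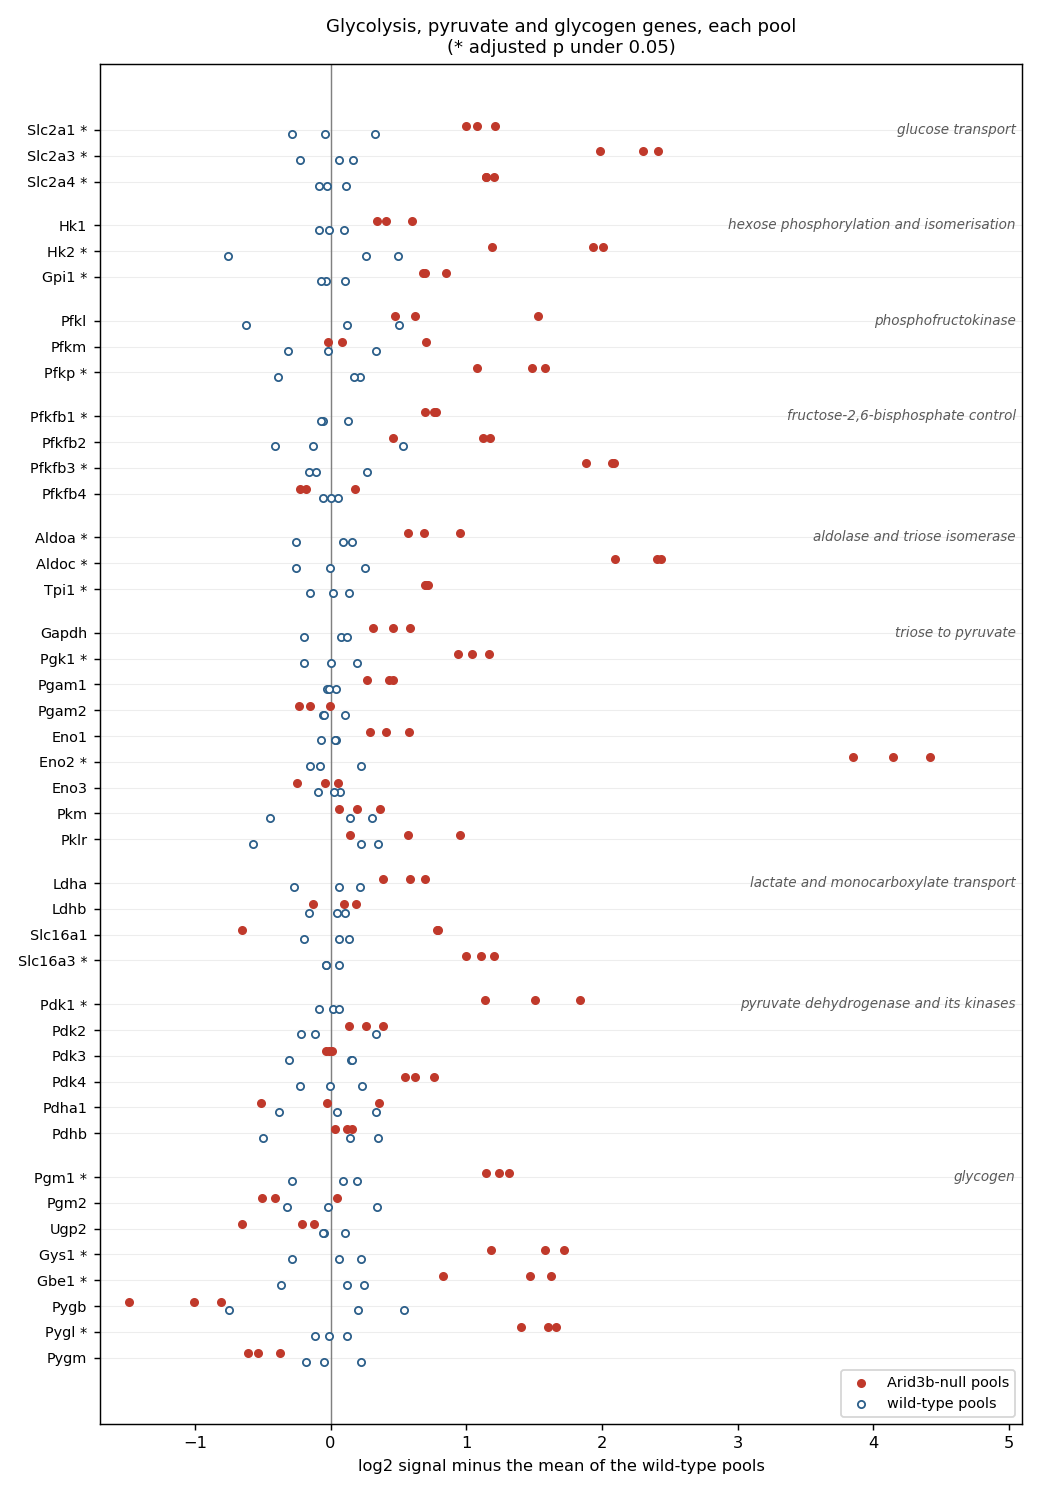
Log2 signal of each pool minus the mean of the wild-type pools (horizontal axis) for the 43 measured genes, grouped by step down the page; filled points are Arid3b-null pools, open points wild-type pools, and an asterisk marks an adjusted p under 0.05. The Arid3b-null points lie farthest to the right for Eno2, and 0 of the asterisks stand beside a gene that is lower in the Arid3b-null pools.

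All 3 listed facilitative glucose transporters rose. Of the same Slc2a family, the neighbouring list of other hexose genes held Slc2a5, which fell (log2 change -0.90, adjusted p = 0.0293). Slc2a8 (0.43, adjusted p = 0.162) and Slc2a10 (-0.87, adjusted p = 0.0879), from that list too, did not pass. Slc2a1 (GLUT1), the broadly expressed transporter of the embryo, had log2 levels of 6.01, 5.79 and 5.88 in Arid3b-null pools 1, 2 and 3, against 4.76, 5.13 and 4.51 in the wild-type pools. The groups did not overlap, and the rise was 2.14-fold (log2 change 1.10, SE 0.20, adjusted p = 0.0166). Slc2a3 (GLUT3), a transporter of high affinity known from neurons, trophoblast and platelets, had 6.01, 5.90 and 5.59 in the Arid3b-null pools, against 3.37, 3.77 and 3.66 in wild type. Every Arid3b-null pool lay far above every wild-type pool, and the rise was 4.70-fold (log2 change 2.23, SE 0.19, adjusted p = 0.00108). Beside it stand the trophoblast markers. Their summed log2 level was 3.60, 4.15 and 5.73 in Arid3b-null pools 1 to 3 and 1.72 to 3.36 in wild type. Of the 9 measured, 1 rose, Ascl2 (log2 change 3.62, adjusted p = 0.00029), while 7 had a positive change and their median was 2.27. Prl3d1 had log2 levels of -3.20, -0.97 and 4.78 in Arid3b-null pools 1 to 3, against -3.19, -2.99 and -3.30 in wild type. Neither Prl3d1 (adjusted p = 0.269) nor Prl3b1 (log2 change -0.41, adjusted p = 0.414) passed. All 14 megakaryocyte and platelet markers rose as well. The part of either kind of cell in the rise of Slc2a3 was not tested. Slc2a4 (GLUT4), the insulin-responsive transporter of muscle and fat, had 1.95, 1.89 and 1.89 in the Arid3b-null pools, against 0.71, 0.66 and 0.85 in wild type. Its groups were tight and apart, and it rose 2.24-fold (log2 change 1.17, SE 0.15, adjusted p = 0.00473). The call of Slc2a1 ended without Arid3b-null pool 2 (adjusted p = 0.0534) or 3 (0.0516) and with the slide as a block (0.0705).

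At the capture of glucose, hexokinase traps it in the cell as glucose 6-phosphate. Hk2, the hexokinase of muscle and of many tumours, had log2 levels of 3.01, 3.76 and 3.83 in the Arid3b-null pools, against 2.08, 2.32 and 1.07 in the wild-type pools. The groups did not overlap, although wild-type pool 3 lay well below its fellows, and the rise was 3.27-fold (log2 change 1.71, SE 0.37, adjusted p = 0.0297). Hk1, the isoform of most tissues, had 5.33, 5.53 and 5.27 in the Arid3b-null pools and 4.84, 4.91 and 5.03 in wild type, a log2 change of 0.45 (SE 0.16) that did not pass (adjusted p = 0.113). With array weights Hk1 passed (adjusted p = 0.0275), and a further Hk1 probe gave -0.09. Gpi1, which turns glucose 6-phosphate into fructose 6-phosphate, had 7.35, 7.36 and 7.51 in the Arid3b-null pools and 6.63, 6.77 and 6.60 in wild type, and rose 1.67-fold (log2 change 0.74, SE 0.15, adjusted p = 0.0233). Its 3 probes gave log2 changes from 0.74 to 0.76. Under quantile normalization the log2 change of Gpi1 was 0.47 and did not pass (adjusted p = 0.104). Hk2 passed in 2 of the 6 fits that leave out a pool, with adjusted p up to 0.0963 without Arid3b-null pool 2, and Gpi1 in 1 of the 6, with up to 0.0898 without Arid3b-null pool 3.

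Phosphofructokinase makes the committed step, and 1 of its 3 subunit genes rose. Pfkp, the platelet-type subunit, had log2 levels of 2.98, 2.88 and 2.47 in the Arid3b-null pools, against 1.01, 1.61 and 1.57 in the wild-type pools. The groups did not overlap, and the rise was 2.6-fold (log2 change 1.38, SE 0.23, adjusted p = 0.0123). The 14 markers of megakaryocytes and platelets rose as well, and their part in the rise of Pfkp was not tested. Pfkl, the liver-type subunit, had 4.87, 3.96 and 3.81 in the Arid3b-null pools against 2.71, 3.46 and 3.84 in wild type, and the groups overlapped (log2 change 0.88, SE 0.37, adjusted p = 0.181). Pfkm, the muscle-type subunit, had 3.29, 2.67 and 2.56 in the Arid3b-null pools against 2.27, 2.57 and 2.92 in wild type, overlapping as well (log2 change 0.25, SE 0.26, adjusted p = 0.575).

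The 4 Pfkfb genes encode the enzymes that make and remove fructose 2,6-bisphosphate, the strongest known activator of phosphofructokinase, and 2 of them rose. Pfkfb3, the isoform whose kinase activity most exceeds its phosphatase activity, had log2 levels of 2.75, 2.74 and 2.54 in the Arid3b-null pools, against 0.50, 0.93 and 0.55 in wild type. The groups were wide apart, and the rise was 4.04-fold (log2 change 2.02, SE 0.18, adjusted p = 0.00132), with 2.55 by its other probe. Pfkfb1, known from liver and muscle, had 0.30, 0.39 and 0.37 in the Arid3b-null pools against -0.45, -0.46 and -0.27 in wild type, a rise of 1.68-fold (log2 change 0.74, SE 0.15, adjusted p = 0.0226) that ended in the blocked fit (0.156) and without Arid3b-null pool 2 or 3 or wild-type pool 1 or 2 (up to 0.0931). Pfkfb2, the isoform known from adult heart, had -3.72, -3.06 and -3.01 in the Arid3b-null pools against -3.64, -4.31 and -4.59 in wild type. The groups overlapped (log2 change 0.92, SE 0.30, adjusted p = 0.0989), but Pfkfb2 passed as higher with array weights (0.0136) and without wild-type pool 1 (0.0490). Pfkfb4 had -0.82, -0.47 and -0.87 in the Arid3b-null pools against -0.70, -0.59 and -0.64 in wild type (log2 change -0.08, SE 0.17, adjusted p = 0.822).

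Aldolase splits fructose 1,6-bisphosphate into 2 trioses, and triose phosphate isomerase interconverts them. Aldoc, the brain-type aldolase, had log2 levels of 3.02, 3.36 and 3.33 in the Arid3b-null pools, against 0.92, 1.18 and 0.67 in the wild-type pools. Every Arid3b-null pool was far above wild type, and the rise was 4.97-fold (log2 change 2.31, SE 0.19, adjusted p = 0.00106). Aldoa, the muscle-type and main embryonic aldolase, had 8.68, 8.80 and 9.06 in the Arid3b-null pools against 8.27, 8.21 and 7.86 in wild type, and rose 1.67-fold (log2 change 0.74, SE 0.19, adjusted p = 0.0481). Tpi1 had 7.10, 7.12 and 7.11 in the Arid3b-null pools against 6.25, 6.42 and 6.54 in wild type, and rose 1.63-fold (log2 change 0.71, SE 0.15, adjusted p = 0.0293). For neither gene did the groups overlap. Both calls ended when any 1 of the 6 pools was left out, with adjusted p up to 0.15 for Aldoa and 0.108 for Tpi1, and quantile normalization gave a log2 change of 0.32 for Aldoa (adjusted p = 0.182) and 0.46 for Tpi1 (adjusted p = 0.165).

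Of the 9 genes between triose phosphate and pyruvate, 2 rose, Pgk1 and Eno2. Eno2, the neuron-type enolase, had the largest log2 change of the 43. Its log2 levels were 3.30, 3.57 and 3.00 in the Arid3b-null pools, against -0.93, -0.998 and -0.62 in the wild-type pools. The lowest Arid3b-null pool lay 3.63 above the highest wild-type pool, and the rise was 17.6-fold (log2 change 4.14, SE 0.20, adjusted p = 0.0002). Pgk1, phosphoglycerate kinase, which makes the first ATP of the pathway, had 7.86, 7.74 and 7.64 in the Arid3b-null pools against 6.50, 6.89 and 6.70 in wild type. Its groups did not overlap either, and it rose 2.07-fold (log2 change 1.05, SE 0.17, adjusted p = 0.0107), but the change was 0.75 under quantile normalization (adjusted p = 0.0781).

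The other enolases did not pass. Eno1, the enolase of most embryonic tissues, had log2 levels of 8.13, 7.95 and 7.84 in the Arid3b-null pools, against 7.48, 7.59 and 7.58 in wild type, with no overlap (log2 change 0.43, SE 0.15, adjusted p = 0.129). Eno3, the muscle enolase, had 4.94, 5.15 and 5.24 in the Arid3b-null pools against 5.26, 5.21 and 5.1 in wild type (log2 change -0.08, SE 0.16, adjusted p = 0.798). Gapdh, often used as a reference gene, had 8.77, 8.91 and 9.04 in the Arid3b-null pools against 8.53, 8.58 and 8.26 in wild type, so that here too every Arid3b-null pool lay above wild type (log2 change 0.45, SE 0.17, adjusted p = 0.133). Its 7 probes gave log2 changes from 0.19 to 0.66, and 1 of them passed over all probes. These differences depended on the scaling: under quantile normalization the log2 change was 0.075 for Gapdh and 0.024 for Eno1, and in the authors' deposited table that of Gapdh was 0.16. The phosphoglycerate mutase Pgam1 had a log2 change of 0.39 (SE 0.15, adjusted p = 0.138), or 0.16 under quantile normalization, and passed with array weights (0.0450). Its muscle isoform Pgam2 changed by -0.13 (SE 0.15, adjusted p = 0.632). Of the pyruvate kinases, Pkm had a log2 change of 0.21 (SE 0.23, adjusted p = 0.609), and Pklr, the isoform of liver and red cells, one of 0.56 (SE 0.31, adjusted p = 0.294).

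**Figure D2:**
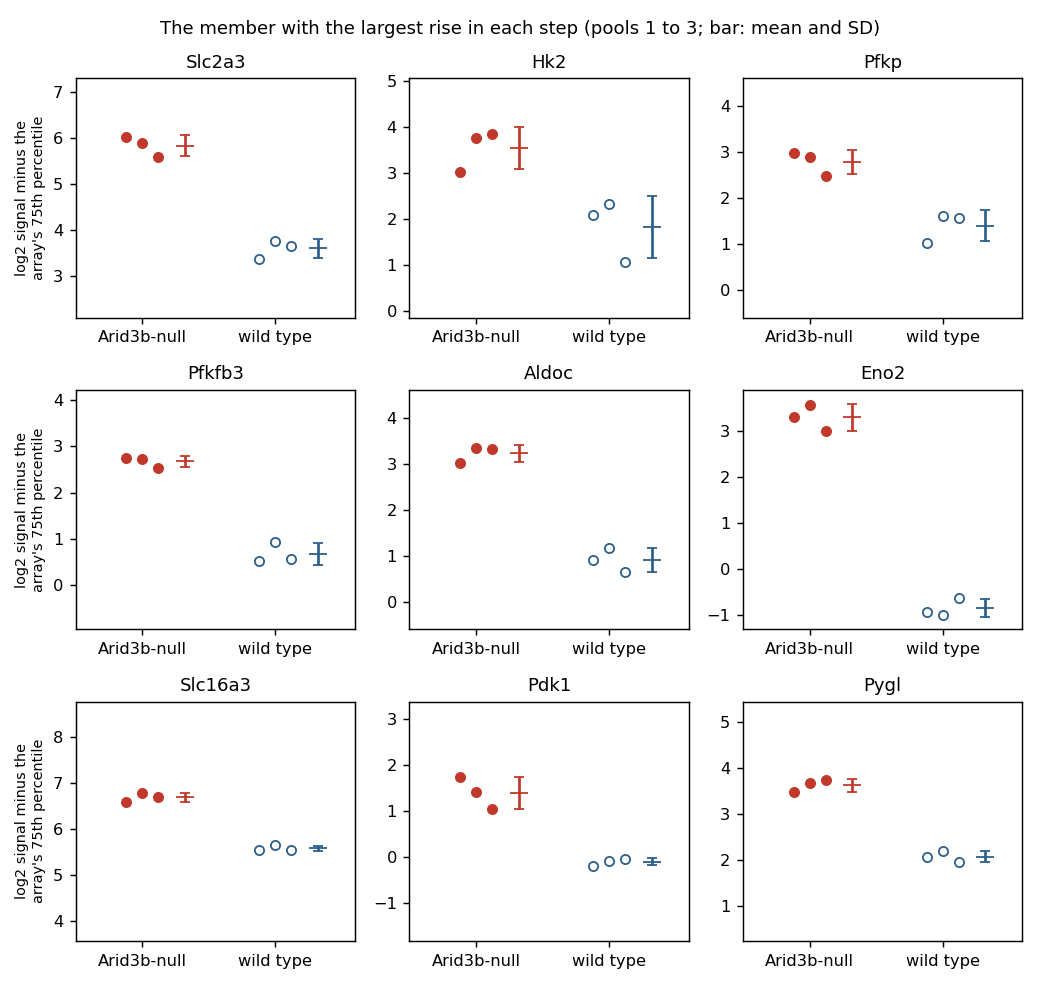
Log2 signal minus the array's 75th percentile (vertical axis) in Arid3b-null pools (left in each panel) and wild-type pools (right) for the gene with the largest rise in each step; points are pools 1 to 3, and the bar gives the mean and SD of the 3 pools. The panels span the same height, and in each of them the 3 Arid3b-null points lie above the 3 wild-type points, by the most for Eno2.

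In the lactate branch, 1 of 4 genes rose. Slc16a3 (MCT4), a carrier known for lactate export, had log2 levels of 6.57, 6.78 and 6.69 in the Arid3b-null pools, against 5.55, 5.64 and 5.55 in the wild-type pools. The pools within each genotype lay close together, and the rise was 2.15-fold (log2 change 1.10, SE 0.15, adjusted p = 0.00578), with 1.10 by both probes and an adjusted p of 0.0519 with the slide as a block. Ldha, the lactate dehydrogenase subunit that favours lactate formation, had 8.35, 8.55 and 8.66 in the Arid3b-null pools against 8.02, 8.18 and 7.69 in wild type, without overlap, and did not pass (log2 change 0.56, SE 0.19, adjusted p = 0.106); its log2 change was 0.16 under quantile normalization and 0.32 in the authors' deposited table. Ldhb, the heart-type subunit, changed by 0.05 (SE 0.17, adjusted p = 0.871). Slc16a1 (MCT1), the widely expressed carrier, had -4.60, -3.16 and -3.15 in the Arid3b-null pools against -3.88, -3.81 and -4.13 in wild type. Its log2 change was 0.31 (SE 0.39, adjusted p = 0.663), with Arid3b-null pool 1 below all wild-type pools. Without that pool the log2 change was 0.79 and passed (adjusted p = 0.0495).

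Of the 6 genes of pyruvate dehydrogenase and its kinases, Pdk1 alone passed. Pdk1 had log2 levels of 1.73, 1.40 and 1.03 in the Arid3b-null pools, against -0.19, -0.09 and -0.04 in the wild-type pools. The Arid3b-null pools were more spread than the wild-type pools but lay above all of them, and the rise was 2.82-fold (log2 change 1.49, SE 0.21, adjusted p = 0.00666). Pdk4, the kinase known to respond to fasting and fatty acids, had -1.58, -1.72 and -1.79 in the Arid3b-null pools against -2.11, -2.35 and -2.57 in wild type, also without overlap (log2 change 0.64, SE 0.18, adjusted p = 0.0597), and passed with normexp background correction (0.0454), where every array had to be above background (0.0471) and with array weights (0.0195). Pdk2 changed by 0.26 (SE 0.19, adjusted p = 0.437) and Pdk3 by -0.01 (SE 0.18, adjusted p = 0.976). The subunit genes of the complex itself, Pdha1 and Pdhb, changed by -0.06 (SE 0.28, adjusted p = 0.918) and 0.10 (SE 0.23, adjusted p = 0.825).

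Glycogen metabolism held 4 risen genes of 8, on the side of synthesis and of breakdown, against 6.64% of all genes tested that rose. Pgm1, phosphoglucomutase, links glucose 6-phosphate to glucose 1-phosphate. Its log2 levels were 6.14, 6.06 and 5.97 in the Arid3b-null pools, against 4.91, 5.02 and 4.53 in the wild-type pools, without overlap, and it rose 2.35-fold (log2 change 1.23, SE 0.18, adjusted p = 0.00775). The symbols Pgm1 and Pgm2 are used as in RefSeq assembly GRCm38.p6; older mouse annotation exchanged them. Gys1, the glycogen synthase of muscle, had 4.13, 3.99 and 3.59 in the Arid3b-null pools against 2.12, 2.47 and 2.63 in wild type. All Arid3b-null pools were higher, and the rise was 2.82-fold (log2 change 1.49, SE 0.21, adjusted p = 0.00728). The other Gys1 probe gave 1.22 and did not pass over all probes (adjusted p = 0.0751). Gbe1, the branching enzyme, had 1.40, 2.04 and 2.19 in the Arid3b-null pools against 0.81, 0.69 and 0.20 in wild type, and rose 2.48-fold (log2 change 1.31, SE 0.26, adjusted p = 0.0244). Its groups did not overlap, yet its call ended in the blocked fit (0.0719) and without Arid3b-null pool 2 or 3 or wild-type pool 2 or 3 (up to 0.0866).

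The glycogen phosphorylases, which release glucose 1-phosphate from glycogen, are encoded by 3 genes, of which 1 rose. Pygl, the liver isoform, had log2 levels of 3.47, 3.67 and 3.72 in the Arid3b-null pools, against 2.05, 2.19 and 1.95 in wild type, a rise of 2.94-fold (log2 change 1.55, SE 0.16, adjusted p = 0.00216). Pygb, the brain isoform, had 0.44, 0.24 and -0.23 in the Arid3b-null pools against 0.50, 1.46 and 1.79 in wild type, and Pygm, the muscle isoform, had 1.87, 1.64 and 1.70 in the Arid3b-null pools against 2.20, 2.06 and 2.47 in wild type. For both, every Arid3b-null pool lay below every wild-type pool, narrowly for Pygb, and neither passed (log2 changes -1.10, SE 0.35, adjusted p = 0.0902, and -0.51, SE 0.17, adjusted p = 0.109). Pygb passed as lower with normexp background correction (0.0304), with array weights (0.0243) and without wild-type pool 1 (0.0241), and Pygm with array weights (0.0427). Pgm2 changed by -0.29 (SE 0.23, adjusted p = 0.474). Ugp2, which makes the UDP-glucose used by glycogen synthase, had 1.39, 1.93 and 1.84 in the Arid3b-null pools against 2.15, 1.996 and 1.99 in wild type (log2 change -0.33, SE 0.19, adjusted p = 0.314).

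To ask whether isoforms of a step changed unequally, the log2 difference between them was taken within each array, for 20 pairs. In 13 pairs the Arid3b-null and wild-type pools did not overlap. Of all single genes tested 32.9% did not overlap, but no such share was computed over other gene pairs. Several of the 20 pairs also share a gene, so the 13 are a description. The exact permutation test gave p = 0.1 (two-sided) for each of the 13, the smallest p that 3 against 3 pools allow, and 0.154 adjusted over the 20 pairs, so this test cannot pass the threshold with 3 pools a group. The widest gap was that of Eno2 over Eno1. Its log2 difference was -4.83, -4.38 and -4.83 in the Arid3b-null pools, against -8.40, -8.59 and -8.20 in the wild-type pools, a shift of 3.71, or 13.1-fold in the ratio. Pygl shifted against Pygb by 2.65, Aldoc against Aldoa by 1.58, Hk2 against Hk1 by 1.26, Pdk1 against Pdk2 by 1.23, Pfkp against Pfkm by 1.13 and Pfkfb3 against Pfkfb2 by 1.10, all without overlap. Slc16a3 shifted against Slc16a1 by 0.80 and Pfkl against Pfkm by 0.62.

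In the other direction, Slc2a1 shifted against Slc2a3 by -1.14, Pfkfb4 shifted against Pfkfb2 by -0.99, Pgam2 against Pgam1 by -0.52 and Eno3 against Eno1 by -0.50, again without overlap. Among the 7 pairs that overlapped were Ldha against Ldhb (0.50, exact permutation p = 0.2), Pdk4 against Pdk2 (0.38, exact permutation p = 0.2), Pklr against Pkm (0.35, exact permutation p = 0.4) and Slc2a1 against Slc2a4 (-0.07, exact permutation p = 0.8). A ratio of this kind shows unequal change between isoforms and does not say that either stayed as it was.

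**Figure D3:**
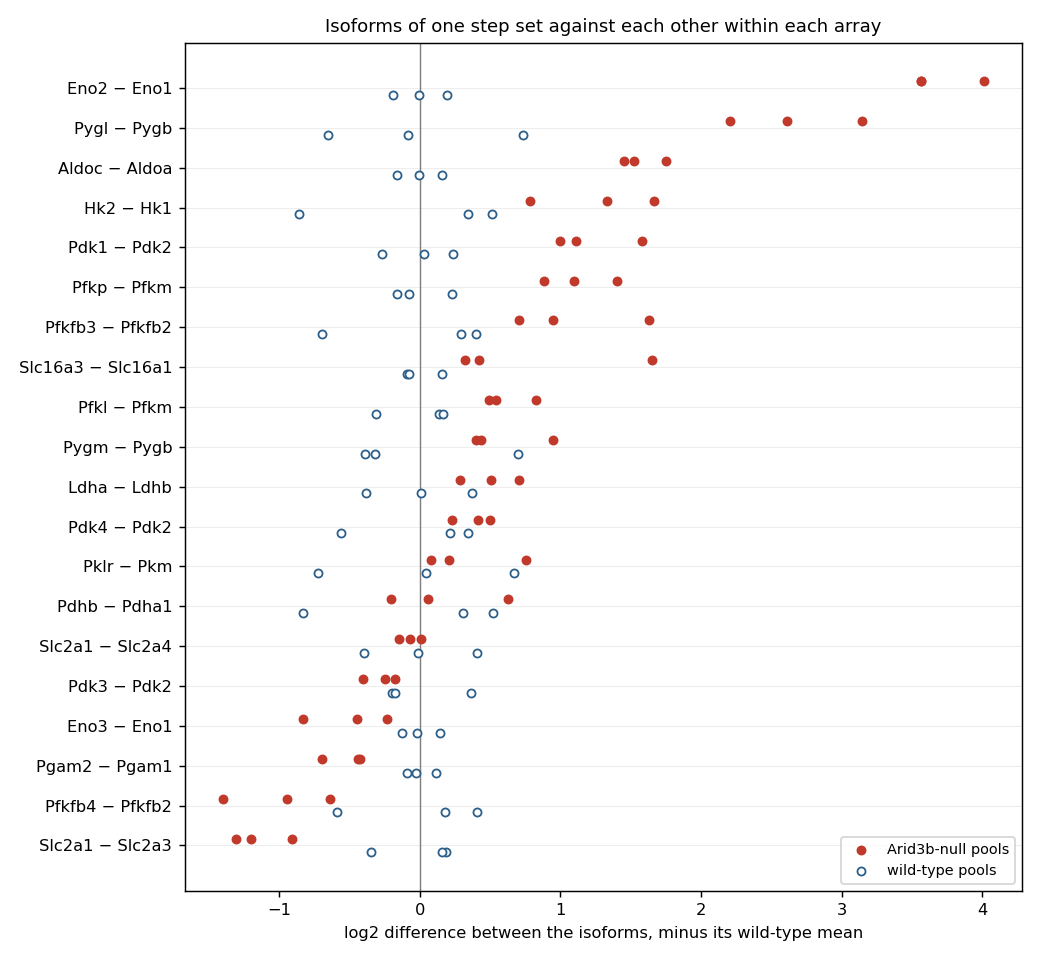
Log2 difference between the isoforms named at the left, taken within each array and shown minus its wild-type mean (horizontal axis); filled points are Arid3b-null pools and open points wild-type pools. The points of Eno2 over Eno1 are the farthest from 0, at a mean shift of 3.71, and 13 of the 20 pairs show no overlap. The share without overlap was not computed over other gene pairs.

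Different probes of a gene gave like directions, with 1 exception. Of the 43 genes, 11 had more than 1 measured probe. In Hk1 the brightest probe gave 0.45 and the other -0.09. Pfkp gave 0.88 and 1.38 and both probes passed, whereas of the 2 probes of Tpi1, at 0.48 and 0.71, only the brighter passed over all probes. The same held for the 2 probes of Gys1, at 1.22 and 1.49. The 3 probes of Ldha, at 0.40 to 0.75, all missed the threshold.

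**Figure D4:**
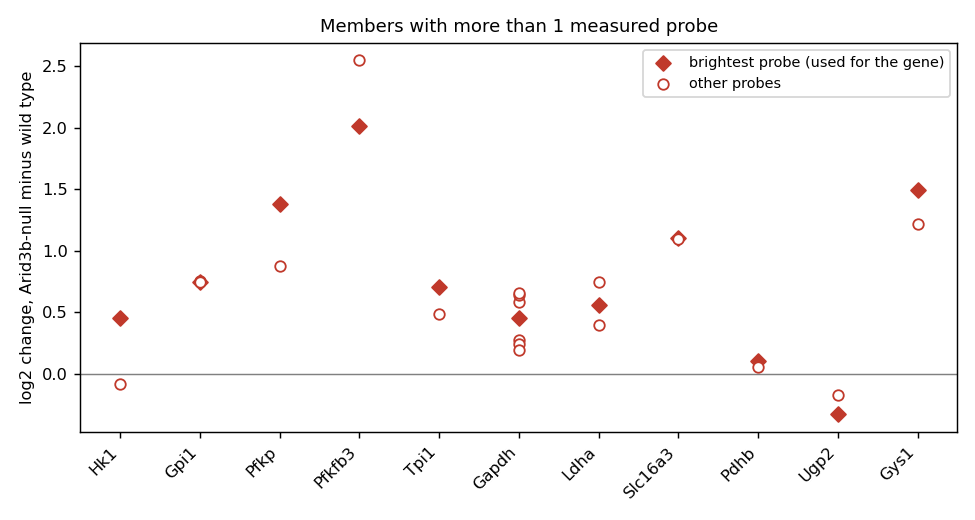
Log2 change, Arid3b-null minus wild type, of each probe (vertical axis) for the 11 genes with more than 1 measured probe; diamonds are the brightest probe, which stands for the gene, and circles the others. The probes of Gpi1 lie within 0.74 to 0.76, those of Gapdh spread over 0.19 to 0.66, and Hk1 has probes on both sides of 0.

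Many glycolytic genes are known targets of hypoxia-inducible factors, which bind a core of A or G followed by CGTG, and an E-box CACGTG holds the same letters. The 250 bases before the start of each gene were therefore searched for ACGTG and GCGTG on both strands (read as CACGT and CACGC on the other), with a CACGTG counted on each strand. Promoters are RefSeq's for assembly GRCm38.p6, and 42 of the 44 genes had an entry. Those below belong to genes with the largest change in their step among genes with an entry, shown to set the changed genes side by side. Where a gene has several promoters, the one with the most matches is shown, and a gene counts as holding a match if any of its promoters does. Capitals mark the motif, and each is printed in the direction of its gene: Slc2a1 at chr4:119108495-119108744 (plus strand), Hk2 at chr6:82774455-82774704 (minus), Pfkfb3 at chr2:11502091-11502340 (minus), Eno2 at chr6:124769674-124769923 (minus), Pdk1 at chr2:71872974-71873223 (plus) and Pygl at chr12:70227684-70227933 (minus).
Slc2a1: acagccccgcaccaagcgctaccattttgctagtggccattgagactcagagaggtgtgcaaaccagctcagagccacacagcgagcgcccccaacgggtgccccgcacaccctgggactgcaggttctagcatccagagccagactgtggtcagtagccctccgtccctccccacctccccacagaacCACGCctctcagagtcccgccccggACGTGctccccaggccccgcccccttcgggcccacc
Hk2: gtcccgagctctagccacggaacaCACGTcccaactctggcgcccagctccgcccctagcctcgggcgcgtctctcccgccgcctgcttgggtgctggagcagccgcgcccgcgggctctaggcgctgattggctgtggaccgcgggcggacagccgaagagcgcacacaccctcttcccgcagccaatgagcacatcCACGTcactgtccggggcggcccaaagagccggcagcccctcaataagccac
Pfkfb3: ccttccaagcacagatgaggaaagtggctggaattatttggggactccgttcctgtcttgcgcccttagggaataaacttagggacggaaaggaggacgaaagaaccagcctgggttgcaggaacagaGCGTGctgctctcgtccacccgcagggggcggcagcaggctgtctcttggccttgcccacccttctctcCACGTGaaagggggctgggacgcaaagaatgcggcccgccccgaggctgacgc
Eno2: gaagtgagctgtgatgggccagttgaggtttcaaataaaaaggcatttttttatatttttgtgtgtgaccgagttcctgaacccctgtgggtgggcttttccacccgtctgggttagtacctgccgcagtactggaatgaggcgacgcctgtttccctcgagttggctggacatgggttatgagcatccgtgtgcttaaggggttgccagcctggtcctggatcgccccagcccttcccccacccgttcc
Pdk1: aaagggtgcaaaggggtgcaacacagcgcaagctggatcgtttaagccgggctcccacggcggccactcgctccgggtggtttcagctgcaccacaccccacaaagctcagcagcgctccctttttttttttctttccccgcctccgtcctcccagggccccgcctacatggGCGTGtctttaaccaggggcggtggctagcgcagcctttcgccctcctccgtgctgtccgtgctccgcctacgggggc
Pygl: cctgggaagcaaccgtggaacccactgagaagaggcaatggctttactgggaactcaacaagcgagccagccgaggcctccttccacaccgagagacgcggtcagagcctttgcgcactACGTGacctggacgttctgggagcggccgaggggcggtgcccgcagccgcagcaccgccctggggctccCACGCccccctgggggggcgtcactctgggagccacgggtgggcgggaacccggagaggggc

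Pfkfb3 has 3 matches, Slc2a1, Hk2 and Pygl have 2 each and Pdk1 has 1, while Eno2, with the largest change, has 0 in this window. At least 1 match stood in 35 of 42 genes with an entry (83.3%), against 57.5% of all tested genes with an entry. The share was 70.6% (12 of 17) in the genes that rose and 91.7% (22 of 24) in those that did not pass. Among the genes that rose, Gys1, Tpi1, Gpi1 and Gbe1 also have 0 matches, and Ldha, which did not pass, has 5. The median GC content was 59.6% in the promoters of the listed genes and 59.2% in those of tested genes. A match is a description of letters, and no match says only that they are not in this window.

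Around these genes, neighbouring pathways were read from lists chosen by function, also with earlier results of these data known. In glycogen handling 3 of 16 measured genes rose (18.8%) and 0 fell, against 6.64% and 3.81% of all genes tested (median log2 change 0.27). Epm2a, the glycogen phosphatase laforin, had log2 levels of -3.69, -3.90 and -3.18 in the Arid3b-null pools, against -6.20, -6.26 and -6.04 in the wild-type pools. It rose 5.96-fold with no overlap between the groups (log2 change 2.57, SE 0.21, adjusted p = 0.00106), and with normexp background correction its log2 change was 1.12 (adjusted p = 0.0035). Ppp1r3c, which brings protein phosphatase 1 to glycogen, had 1.88, 1.86 and 1.71 in the Arid3b-null pools against -0.0042, 0.41 and 0.21 in wild type, and rose 3.05-fold (log2 change 1.61, SE 0.17, adjusted p = 0.00236). Gaa, the lysosomal enzyme that degrades glycogen, rose by 0.69 (SE 0.15, adjusted p = 0.0315), but its call ended without any 1 of the 6 pools (adjusted p up to 0.119), with median scaling (0.0677), when dim probes were kept (0.0919), in the blocked fit (0.187) and with the mean of its probes (0.438), where its log2 change was 0.29.

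Of 19 other glycolytic and hexose genes, 3 rose and 4 fell (median 0.14). Over all genes tested, 6.64% rose and 3.81% fell. The risen were the carrier Slc16a7 (log2 change 1.37, SE 0.21, adjusted p = 0.00944), galactokinase Galk1 (0.97, SE 0.19, adjusted p = 0.0205) and ketohexokinase Khk (0.93, SE 0.17, adjusted p = 0.0173), and Slc16a7 lost its call with normexp (log2 change 0.59, adjusted p = 0.076), Galk1 and Khk theirs in the blocked fit (0.0907 and 0.0967) and when dim probes were kept (0.0587 and 0.0527). The 4 that fell, named after their values were seen, were Hkdc1, Slc2a5, Bpgm and Mpi, with log2 changes from -1.09 to -0.69. Among 7 measured gluconeogenic genes, Pcx, pyruvate carboxylase, rose (1.01, SE 0.15, adjusted p = 0.00849) and Fbp1 fell (-1.12, SE 0.16, adjusted p = 0.00799), though Fbp1 was well above background on 2 of the 3 Arid3b-null arrays and with normexp its log2 change turned to 0.16 (adjusted p = 0.535). Of 14 genes for the entry of pyruvate into mitochondria, Gpt2, an alanine aminotransferase, rose (1.23, SE 0.16, adjusted p = 0.00493) beside Pcx, which that list shares.

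In the pathways that use or bypass pyruvate the calls are to be read against the 10.5% of all genes tested that were called. In the TCA cycle 0 of 19 genes and in oxidative phosphorylation 0 of 26 genes passed with limma. In each list 2 genes had an unadjusted p under 0.05, as had 5864 of the 21787 genes tested. Both medians were -0.12, and the smallest p values belonged to Idh3a (-0.51, adjusted p = 0.0842) and Sdhd (-0.39, adjusted p = 0.183) and to Cyc1 (-0.62, adjusted p = 0.0536) and Cycs (-0.53, adjusted p = 0.143). In the pentose phosphate pathway 1 of 11 genes fell, Taldo1 (-0.73, SE 0.17, adjusted p = 0.0359, but 0.185 in the blocked fit), and in fatty acid oxidation 1 of 17 rose, the fatty acid carrier Cd36 (1.36, SE 0.21, adjusted p = 0.00989).

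Among 19 regulators of glycolytic genes, 1 rose and 1 fell, or 10.5% called, which is the share over all genes tested. Hif1a, the oxygen-regulated subunit of hypoxia-inducible factor, which is controlled mainly at the level of its protein, had log2 levels of -0.06, -0.41 and -0.39 in the Arid3b-null pools, against 0.56, 0.77 and 0.38 in the wild-type pools. The groups did not overlap, and its mRNA fell by 0.86 on the log2 scale (SE 0.18, adjusted p = 0.0275), with adjusted p up to 0.106 when a pool was left out and 0.124 in the blocked fit. Ppard, a nuclear receptor for fatty acids, rose (log2 change 0.84, SE 0.16, adjusted p = 0.0199, but 0.122 in the blocked fit).

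**Figure D5:**
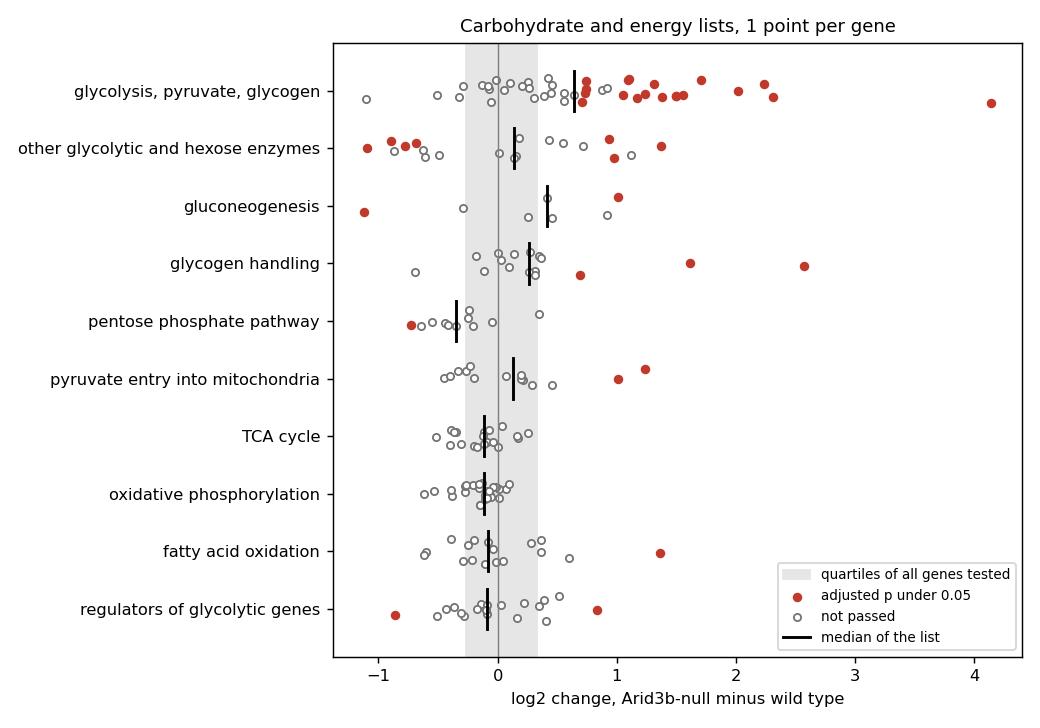
Log2 change, Arid3b-null minus wild type (horizontal axis), with 1 point per measured gene for the glycolysis, pyruvate and glycogen genes and for each neighbouring list down the page; filled points have an adjusted p under 0.05, the vertical tick is the list's median, and the grey band spans the quartiles of all genes tested. The median of the 43 genes stands at 0.64, and those of the TCA cycle and oxidative phosphorylation at -0.12.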

How the data were processed

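RNA of 6 pools of embryonic hearts was hybridised to 6 Agilent arrays (design 026655), in a single colour. The deposited intensity values are processed signals of Agilent Feature Extraction (version 10.7.3.1, per the file headers), which subtracted background and set no scale between arrays. The same software's deposited spot calls (above background, saturated, outlier) were used as filters; 0 spots were saturated. The authors' deposited log2 table served as an alternative. How it was made is not stated; its log2 values correlated above 0.999 with the scanner values on each array, and its medians were nearly equal between arrays, so its scaling is unknown.

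Signals were log2 transformed and scaled by subtracting the 75th percentile of their array. Outlier spots were dropped and repeat spots averaged. A probe entered the test if 3 or more of the 6 arrays called it well above background, true of 26829 out of 39429. Of all probes, 26424 had a symbol through their accession in RefSeq's GRCm38.p6 gene table, and 13005 kept their target name. Since the file headers name mm9, no gene coordinates are printed other than those of RefSeq's own promoters. The brightest kept probe stood for a gene. Groups were compared with limma 3.58.1 (lmFit, eBayes) in R 4.3.3, two-sided, with Benjamini-Hochberg adjustment over 21787 genes and a threshold of 0.05; SE is the moderated standard error. The 3 pools per group limit the precision, and the labels do not say whether pools of a genotype came from separate litters, so p-values measure the spread between these pools.

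Pools of the same number share a slide, but their deviations from the group means correlated at -0.41, -0.09 and -0.41 over all genes, so the number was not taken as a pairing and the slide was kept as an alternative. The other alternatives were quantile normalization, median scaling, normexp (on the median signal, offset 50), no filter on dim probes, a filter asking for signal on every array, use of outlier spots, averaging over probes, a trended robust prior, array weights, the authors' table and each pool left out. The named genes are all 44 listed genes, Arid3b, the first 2 measured markers of lists described with examples, and up to 3 called genes with the smallest p of each neighbouring list (where none was called, the 2 with the smallest p). Ascl2 and Nppa are named too, as the only risen markers of their lists, and Slc2a5, Slc2a8 and Slc2a10 as further measured Slc2a transporters. The listed genes and all lists were chosen with earlier results of these data known.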

Additional observations from a re-analysis of the deposited data

How the results depend on the processing

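All 19 rises kept their direction under each of the 17 alternatives that held the gene. Aldoa is not among the genes tested in the authors' table. For many alternatives this was fixed beforehand. The groups lay apart for all 19, so fits without a pool or with array weights could not turn a sign. The block and the prior leave the log2 change as it is. In 265 comparisons of a called gene with an alternative its call held and in 57 it was lost. With the replicate block on the slide 10 genes passed, and of all genes 742; without Arid3b-null pool 2, 11, and over the 6 fits without a pool 11 to 18. Quantile normalization gave 15, the authors' values 15 of 39 tested, median scaling 17, no filter on dim probes 13 and array weights 25, of which 23 were higher and 2 lower. Of all genes, 1038 passed with no filter, 4861 with array weights and 832 to 1765 without a pool. The median change of the 43 genes was 0.45 with quantile normalization, 0.51 with median scaling and 0.49 with the authors' table (0.61 to 0.69 without a pool), while median scaling put the median of all genes at -0.11, normexp at 0.16 and no filter at 0.17. With quantile normalization 4 calls ended, those of Aldoa, Gpi1, Pgk1 and Tpi1, and in the authors' table those of Gpi1, Pgk1 and Tpi1. The cause of these losses was not tested, except that no filter raises the number of genes tested to 32514.

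Of genes that did not pass, 8 turned in sign in 19 values. Pkm gave -0.072 with quantile normalization and -0.017 to 0.36 without a pool. Ldhb gave -0.079 with median scaling, -0.020 with normexp and -0.025 to 0.14 without a pool. Pdk3 gave 0.011 with quantile normalization and -0.17 to 0.068 without a pool. Pdha1 gave -0.27 to 0.17 without a pool. Pdhb gave -0.031 with median scaling, -0.0088 with normexp, -0.090 with array weights and -0.15 to 0.28 without a pool. Pfkfb4 gave 0.044 with array weights, Eno3 -0.15 to 0.0062 without a pool and Pgm2 0.024 with normexp.

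For the neighbouring lists, the replicate block left 1 call in other glycolytic and hexose genes, 1 in pyruvate entry and 0 in gluconeogenesis, the pentose phosphate pathway and the regulators. No filter on dim probes left 1 in other glycolytic genes and 0 in the pentose phosphate pathway and the regulators. Array weights gave 14 in other glycolytic genes, 3 in the pentose phosphate pathway, 4 in pyruvate entry, 2 in the TCA cycle, 1 in oxidative phosphorylation and 2 in fatty acid oxidation. In the pentose phosphate pathway quantile normalization and median scaling gave 2, and with the authors' values, which lack Taldo1, 0 passed. In the TCA cycle median scaling and the trended prior gave 1. In oxidative phosphorylation median scaling, normexp, all arrays and the trended prior gave 1 and the mean of probes 2. In fatty acid oxidation all arrays and the trended prior gave 2. Without a pool the totals were 1 to 5 in other glycolytic genes, 0 to 2 in the regulators and 0 in the pentose phosphate pathway, the TCA cycle and oxidative phosphorylation. Of the 20 isoform pairs, 8 did not overlap in the authors' table, which lacks some of the genes and so some of the pairs. Without a pool, 13 to 16 did not overlap. Leaving out a pool cannot make separate groups overlap, so this count could not fall below 13 and is no test of the pairs.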
